A study of Homo sapiens with 8 samples.

Results

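Genes that fold, oxidise, monitor and degrade proteins in the endoplasmic reticulum (ER) were followed in U87MG cells, an established human glioblastoma line, through an enzalutamide time course. The set holds 41 named genes, chosen by symbol, out of the 23368 gene rows listed for each library. All 41 were found and all 41 passed the filter on low counts, as did 14448 genes in all. There were 4 groups of 2 libraries: untreated control cells, and cells exposed to the antiandrogen enzalutamide for 4, 24 or 48 h. All groups were the same line, grown in DMEM with serum. The dose, a vehicle and a time for the control cells are not given in the labels, so drug exposure and time in culture cannot be told apart. Whether both libraries of a group stem from separate cultures is not labelled, so the p-values reflect the spread among these libraries and that spread may be technical. The extraction protocol speaks of a harvest after differentiation, which no other label mentions.

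The ER folds secreted and membrane proteins. Chaperones such as BiP, encoded by HSPA5, hold unfolded chains, and protein disulfide isomerases form and rearrange their disulfide bonds. The sensors IRE1 (ERN1), ATF6 and PERK start the unfolded protein response when misfolded chains accumulate. IRE1 splices the mRNA of XBP1, ATF6 is cleaved into a transcription factor, and PERK slows translation. Chains that cannot be folded are recognised by lectins, passed through the membrane and ubiquitinated, a route called ER-associated degradation.

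Total counts ranged from 24620833 to 37162565 per library. The 48 h libraries stood apart from the other 6 on the first principal component (69.3% of the variance), at 69.3 and 61.0 against -28.5 to -16.5. Of the markers of the line, VIM, CD44 and FN1 had at least 2020 CPM (counts scaled to a common library total, here without TMM) in every library. CHI3L1 had 213 and 199 CPM at 4 h, against 109 and 95.6 CPM in control, and NES had 9.5 and 11.9 CPM at 48 h, against 26.9 and 29.2 CPM in control. CDKN2A and MTAP, both deleted in this line, had at most 0.0305 and 0.0406 CPM. Of 25 markers of neurons, oligodendrocytes, immune cells, epithelium and endothelium, 18 stayed under 1 CPM in all libraries. MOG and CD3E were at 0 counts, and PTPRC, EPCAM and CDH5 had at most 0.212 CPM. Other markers of these lists were present: SYP had 1.98 to 5 CPM, MBP 1.36 to 3.09 CPM and KRT8 4.22 to 10.8 CPM. As sums of TMM-scaled CPM, the immune list had 930 to 1050 at 48 h, against 658 to 712 in control, nearly all of it CD68, a lysosomal gene. The endothelial list had 4.02 to 5.16 at 48 h, against 17.3 to 18.1 in control, mostly KDR. The neuronal list had 36.1 to 37.2 at 48 h, against 41.7 to 44.3 in control, with SNAP25 lower and GAD1 higher at 48 h. The list of the line's own markers had 21700 to 22900 at 48 h, against 13600 to 14300 in control. Their part in the results below was not tested.

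Most of the ER genes were higher at 48 h and close to control before that. At 48 h, 28 of the 41 genes were higher and 7 lower than in control at a Benjamini-Hochberg adjusted p under 0.05 (quasi-likelihood test of edgeR). Across all 14448 genes tested, 66.9% were called at 48 h, 33.3% as higher and 33.5% as lower, and the ER genes were called in 85.4% of cases. Their median log2 change was 0.41, with quartiles at 0.04 and 0.71, beside a median of -0.02 over all genes. At 4 h, 4 were higher and 5 lower, when 28.6% of all genes were called, 15% as higher and 13.6% as lower. At 24 h, 3 were higher and 5 lower, when 22.3% of all genes were called, 12.9% as higher and 9.39% as lower. As a share, 22% of the ER genes were called at 4 h and 19.5% at 24 h. With only the compared groups in the fit these shares were 41.5% (38.6% of all genes) at 4 h and 46.3% (35.7% of all genes) at 24 h, so the order against all genes depended on the fit. The 3 comparisons share the control libraries. In bulk RNA, a change in the number of responding cells and a change in RNA per cell cannot be told apart.

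The upward shift at 48 h depended in part on how the libraries were scaled. Levels elsewhere are CPM scaled by TMM, edgeR's correction for library composition, with factors of 0.870 and 0.899 at 48 h, against 1.07 and 1.08 in control. When only library totals were used for scaling, the median of all genes at 48 h moved by -0.28 on the log2 scale, and 15 ER genes were called higher and 12 lower, or 65.9% of them, beside 65.6% of all genes. The 15 that stayed higher were HSPA5, HSP90B1, HYOU1, CALR, CANX, MANF, DNAJB9, DNAJC3, ERP29, ERN1, XBP1, HERPUD1, OS9, DERL2 and UBE2J1. The 7 called lower remained lower under every scaling tried, and with library totals CRELD2, DNAJC10, ATF6, WFS1 and DERL1 were called lower too. Changes of at least 2-fold were made by 17.1% of the ER genes at 48 h and by 22.7% of all genes.

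**Figure D1:**
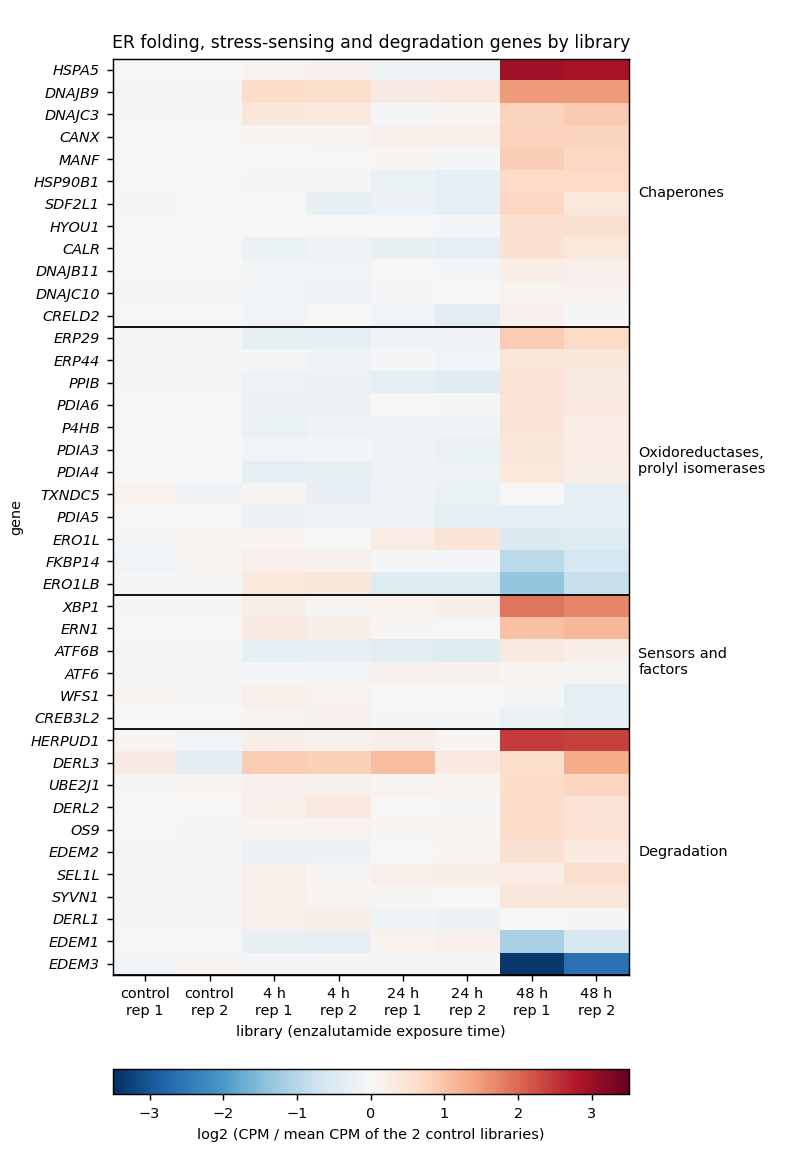
Level of each of the 41 ER genes (rows, grouped by role) in each of the 8 libraries (columns), as log2 of CPM over the mean CPM of the 2 control libraries; red is higher and blue lower. The 48 h columns hold nearly all of the strong colours, with HSPA5, HERPUD1, XBP1 and DNAJB9 the reddest and EDEM3 the bluest.

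As a summed level, the 41 genes made up 12917 and 12920 CPM in the control libraries, 12269 and 12573 after 4 h, 12075 and 11834 after 24 h, and 27626 and 26048 at 48 h. The 48 h sum was thus above every other library, at 2.08 times the control mean. HSPA5 alone made up 65.4% of the difference between the 48 h and control means. Without HSPA5 the ratio of 48 h to control was 1.42. By role, the summed ratio was 2.70 for chaperones (1.52 without HSPA5), 1.27 for oxidoreductases and prolyl isomerases, 1.37 for sensors and their factors, and 1.43 for degradation genes. Without the gene that added most to each sum, the ratio was 1.24 for oxidoreductases (without P4HB), 0.97 for sensors (without XBP1) and 1.17 for degradation genes (without HERPUD1). All these sums and ratios are TMM-scaled, and the smaller TMM factors at 48 h raise every one of the ratios. As a share of raw library totals, the 41 genes made up 1.38 and 1.39% in control, and 2.4 and 2.34% at 48 h. The ratios by role were not computed with library totals, so those near 1 may not hold under that scaling.

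**Figure D2:**
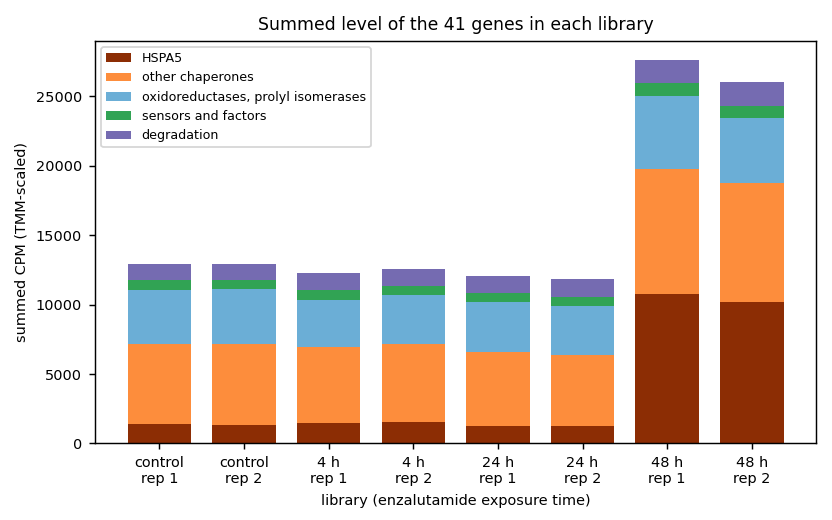
Summed TMM-scaled CPM of the 41 ER genes in each library, stacked by role with HSPA5 drawn separately. The 6 control, 4 h and 24 h libraries lie between 11834 and 12920 CPM, and the 48 h libraries at 27626 and 26048 CPM, with HSPA5 the largest block.

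Per length, the ER genes differed widely among themselves. Levels per kilobase of exon, with lengths from the GENCODE annotation of GRCh38, ran in control from 1082 CPM per kilobase for CALR to 0.299 for DERL3. After CALR came P4HB (762), HSP90B1 (590) and HSPA5 (355). At 48 h HSPA5 was the highest, at 2685 CPM per kilobase, ahead of CALR at 1476. HERPUD1 moved up to rank 10 at 48 h, against rank 22 in control, and XBP1 to rank 8, against rank 13. These lengths are only approximate for the hg19 counts, and genes with long annotated untranslated exons, such as DNAJC10, come out low.

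Promoter sequence was examined because ER stress genes share known control elements. The ER stress response element (ERSE) is CCAAT, any 9 bases, then CCACG, and is known to bind NF-Y together with ATF6. ERSE-II is ATTGG, any base, then CCACG. Both were searched on both strands in the RefSeq promoter table for GRCh38.p14, which spans 250 bases before to 50 after each annotated start. Of the 41 genes 37 matched the table, all but PDIA3, FKBP14, DERL1 and DERL3. ERSE was found for 8 of the 37 genes (21.6%), beside 25 of 27305 gene symbols in the table (0.0916%). ERSE-II was found for 3 of the 37 (8.11%), beside 19 of 27305 (0.0696%). The 5-base core ACGTG, which lies in the element bound by XBP1, was found for 22 of 37 (59.5%), beside 24.9% of all symbols. Genes with the core included EDEM3, ERO1L and PDIA5, lower at 48 h, and DNAJC10 and TXNDC5, not called; the rest were higher. The core overlapped the ERSE-II matches of HYOU1 and HERPUD1. For all 3 motifs the 27305 symbols were not limited to the 14448 genes tested, whereas the ER genes all passed the filter on low counts. A match describes letters, not a bound site, and the genes were picked for their ER function.

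The promoters with a match follow, 5′ to 3′ on the gene's own strand, with the matched element in capitals (as its reverse complement where the match lies on the other strand). HSPA5 is given over its full promoter window, chr9:125241294-125241593, on the minus strand, with the element 66 to 48 bases before the start; the others are cut to the surroundings of their elements.
HSPA5: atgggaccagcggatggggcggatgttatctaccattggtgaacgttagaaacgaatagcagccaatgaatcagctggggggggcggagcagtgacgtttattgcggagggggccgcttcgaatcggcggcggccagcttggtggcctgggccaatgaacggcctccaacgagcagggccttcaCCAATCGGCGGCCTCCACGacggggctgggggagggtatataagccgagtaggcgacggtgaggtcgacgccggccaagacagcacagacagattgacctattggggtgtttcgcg
XBP1: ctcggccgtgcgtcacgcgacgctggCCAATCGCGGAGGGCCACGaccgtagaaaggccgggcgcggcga
HERPUD1: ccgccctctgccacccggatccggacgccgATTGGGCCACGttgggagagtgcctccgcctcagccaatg
HSP90B1: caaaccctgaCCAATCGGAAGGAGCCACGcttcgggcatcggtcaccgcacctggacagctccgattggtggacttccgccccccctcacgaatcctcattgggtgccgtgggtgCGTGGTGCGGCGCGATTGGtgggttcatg
HYOU1: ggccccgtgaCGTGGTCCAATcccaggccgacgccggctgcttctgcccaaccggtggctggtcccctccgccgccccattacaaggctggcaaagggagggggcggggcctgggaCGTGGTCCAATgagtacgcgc
CANX: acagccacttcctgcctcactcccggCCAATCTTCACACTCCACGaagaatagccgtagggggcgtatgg
SDF2L1: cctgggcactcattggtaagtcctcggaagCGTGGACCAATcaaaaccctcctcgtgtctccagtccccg
CALR: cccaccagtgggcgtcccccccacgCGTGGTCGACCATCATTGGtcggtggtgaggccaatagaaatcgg
PDIA6: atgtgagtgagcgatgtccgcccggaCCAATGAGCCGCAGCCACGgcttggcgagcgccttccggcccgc
CRELD2: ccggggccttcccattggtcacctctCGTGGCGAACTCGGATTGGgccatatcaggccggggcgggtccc
ERO1LB: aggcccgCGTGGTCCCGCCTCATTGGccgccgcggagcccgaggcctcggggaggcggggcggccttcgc
The windows lie at chr22:28800578-28800647 (XBP1, minus strand), chr16:56931995-56932064 (HERPUD1, plus), chr12:103930206-103930349 (HSP90B1, plus), chr11:119057264-119057400 (HYOU1, minus), chr5:179698752-179698821 (CANX, plus), chr22:21642084-21642153 (SDF2L1, plus), chr19:12938359-12938428 (CALR, plus), chr2:10812828-10812897 (PDIA6, minus), chr22:49918528-49918597 (CRELD2, plus) and chr1:236282139-236282208 (ERO1LB, minus), all in GRCh38.p14. HYOU1, SDF2L1 and HERPUD1 hold ERSE-II and the other 8 hold ERSE. HSP90B1 and HYOU1 each hold their element at 2 places. For CANX 3 of 4 listed promoters had the match, and for PDIA6 and XBP1 1 of 2. Of these 11 genes, 9 were higher at 48 h, CRELD2 was not called and ERO1LB was lower, beside 28 of all 41 ER genes and 33.3% of all genes called higher. The 41 include PDIA3 and DERL3 (both higher), FKBP14 and DERL1, which were not in the promoter table and could not have a match. Among the 9, SDF2L1 and PDIA6 lost the call with library totals. DNAJB9, ERN1 and DNAJC3, which were among the larger rises, had neither element in this window.

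Among the chaperones and their co-chaperones, 10 of 12 were higher at 48 h, when 33.3% of all genes were called higher. All 12 had a positive change, as did 7057 of all 14448 genes, and their median log2 change was 0.63. With library totals as scaling, CRELD2, DNAJB11 and DNAJC10 had negative changes. HSPA5 encodes BiP, the main ER chaperone of the HSP70 family. It had 1408 and 1364 CPM in control, 1497 and 1538 after 4 h, 1254 and 1237 after 24 h, and 10789 and 10196 at 48 h. Only the 48 h libraries left the narrow range of the others, by a wide margin. The 48 h level was 7.57-fold above control (log2 change 2.92, SE 0.06, adjusted p = 6.95e-11). Its 4 h and 24 h changes, 0.13 and -0.15, did not pass the test against control. The 24 h level was lower than at 4 h (log2 change -0.29, SE 0.05, adjusted p = 0.00132).

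DNAJB9 (ERdj4) is a co-chaperone of BiP that represses IRE1 and is a known target of XBP1. It had 25.1 and 24.0 CPM in control, 38.6 and 37.8 after 4 h, 29.9 and 30.9 after 24 h, and 69.5 and 69.2 at 48 h. None of the 4 groups overlapped another. Within the main gene set it was the only gene called higher than control at all 3 times. The trait was not unique among ER genes. DNAJC1, from the wider list below, was likewise called higher each time, with log2 changes of 0.41, 0.31 and 0.83 in order of time. The calls of DNAJC1 were not examined under the alternative settings. The rises of DNAJB9 were 0.64 (SE 0.07, adjusted p = 1.01e-04) at 4 h, 0.31 (SE 0.07, adjusted p = 0.0121) at 24 h and 1.5 (SE 0.07, adjusted p = 2.15e-08) at 48 h on the log2 scale. The 24 h call was lost when any of the control or 24 h libraries was left out. Between 4 and 24 h the level fell by 0.33 (SE 0.07, adjusted p = 0.0038). DNAJC3 (p58IPK), a co-chaperone of BiP that also inhibits PERK, likewise had its 4 h libraries between those of control and 48 h, with 101 and 107 CPM in control, 137 and 132 after 4 h, 101 and 107 after 24 h, and 179.6 and 197 at 48 h. Its 24 h libraries lay on the control values, and it was higher at 4 h (log2 change 0.37, SE 0.07, adjusted p = 0.00217) and at 48 h (0.86, SE 0.07, adjusted p = 8.32e-07).

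The lectin chaperones calnexin (CANX) and calreticulin (CALR) bind glycoproteins with the same sugar signal. CANX had 1128 and 1165 CPM in control, 1203 and 1228 after 4 h, 1304 and 1299.6 after 24 h, and 2016 and 1978 at 48 h. Its libraries climbed with time without overlap, and it was 1.74-fold higher at 48 h (log2 change 0.80, SE 0.05, adjusted p = 1.9e-07). The 24 h change of 0.18 was called (SE 0.05, adjusted p = 0.0268) but was lost with DESeq2, with both other scalings, and without any of the control, 4 h or 24 h libraries. CALR had 2086 and 2034 CPM in control, 1738 and 1843 after 4 h, 1708 and 1644 after 24 h, and 2974 and 2643 at 48 h. It thus lay below control at 4 and 24 h and above it at 48 h, with log2 changes of -0.20 (SE 0.07), -0.30 (SE 0.07) and 0.45 (SE 0.07) and adjusted p of 0.0386, 0.00811 and 9.87e-05. The 4 h call of CALR was lost without any of the control, 4 h or 24 h libraries, and the 24 h call without control replicate 1 or 24 h replicate 2.

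HSP90B1 (GRP94), the HSP90 of the ER, had 1663 and 1718 CPM in control, 1621 and 1650.2 after 4 h, 1433 and 1363 after 24 h, and 2766 and 2746 at 48 h. The 24 h libraries were the lowest and the 48 h libraries the highest. It was lower at 24 h (log2 change -0.27, SE 0.05, adjusted p = 0.00404, lost without 24 h replicate 2) and 1.63-fold higher at 48 h (0.71, SE 0.05, adjusted p = 5.75e-07). MANF, a secreted ER stress protein, stayed between 82.6 and 89.8 CPM in the control, 4 h and 24 h libraries and reached 156 and 142 CPM at 48 h (log2 change 0.80, SE 0.07). HYOU1 (GRP170), which exchanges the nucleotide of BiP, stayed between 240.1 and 254 CPM and reached 365 and 366 CPM at 48 h (0.53, SE 0.06). SDF2L1, a partner of the ER co-chaperones, rose by 0.56 (SE 0.13) at 48 h, and its 2 libraries there, at 28.7 and 22.3 CPM, were unequal; the call was lost with library totals. DNAJB11 (ERdj3) rose by only 0.21 (SE 0.06, adjusted p = 0.0133), a call that was lost without control replicate 2, with only the compared groups in the fit, and with library totals. CRELD2, an ER stress-inducible protein, and DNAJC10 (ERdj5), a reductase, did not pass the test at 48 h, with changes of 0.04 (SE 0.10) and 0.12 (SE 0.06). With library totals both were called lower, by -0.24 and -0.16.

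Of the oxidoreductases and prolyl isomerases, 7 of 12 were higher and 4 lower at 48 h, with a median log2 change of 0.31, when 33.3% of all genes were called higher and 33.5% lower. ERP29, a thioredoxin-fold protein without a redox site, had 121 and 112 CPM in control, 91.4 and 93.7 after 4 h, 106 and 107 after 24 h, and 217 and 185 at 48 h. The 4 h libraries were the lowest and the 48 h libraries the highest. It was lower at 4 h (log2 change -0.34, SE 0.08, adjusted p = 0.0088) and 1.72-fold higher at 48 h (0.78, SE 0.08, adjusted p = 5.04e-06). The 4 h call was lost without control replicate 1 or either 4 h library.

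The other 6 that were higher at 48 h rose by between 0.30 and 0.41 on the log2 scale, and none of them kept its call with library totals. They were the disulfide isomerases PDIA3, PDIA4, PDIA6 and P4HB, the retrieval chaperone ERP44 and the prolyl isomerase PPIB (cyclophilin B). PDIA4 had 642 and 646 CPM in control, 518 and 539.7 after 4 h, 593 and 574 after 24 h, and 829 and 751 at 48 h, so that it lay below control at 4 h (log2 change -0.28, SE 0.06, adjusted p = 0.00632, lost without 4 h replicate 1) and above it at 48 h (0.30, SE 0.06, adjusted p = 0.0014). PDIA6 had the same order, with 368 and 367 CPM in control, 317 and 319 after 4 h, 366 and 349 after 24 h, and 498 and 468 at 48 h. Its 4 h change of -0.21 (SE 0.06, adjusted p = 0.0221) was lost without any of the control or 4 h libraries. PPIB was lowest at 24 h, with 194 and 181 CPM in control, 166 and 164 after 4 h, 147 and 139.7 after 24 h, and 264 and 233 at 48 h. Its log2 changes were -0.39 (SE 0.07, adjusted p = 0.00312, lost without 24 h replicate 2) at 24 h and 0.41 (SE 0.07, adjusted p = 4.01e-04) at 48 h. P4HB, which is also the beta subunit of collagen prolyl hydroxylase, had 2729 and 2372 CPM at 48 h, against 1988 and 1981 CPM in control (0.36, SE 0.07).

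ERO1L and ERO1LB, both lower at 48 h, encode the oxidases that recharge the disulfide isomerases. ERO1LB had 21.2 and 20.3 CPM in control, 27.0 and 27.5 after 4 h, 15.3 and 15.5 after 24 h, and 8.17 and 11.96 at 48 h. No pair of its groups overlapped, and the level was highest at 4 h and lowest at 48 h. It was 2.06-fold lower at 48 h (log2 change -1.05, SE 0.14, adjusted p = 6.43e-05) and lower at 24 h (-0.44, SE 0.14, adjusted p = 0.0423, a call lost without any of the control, 4 h or 24 h libraries). The 4 h change of 0.39 (SE 0.13, adjusted p = 0.0501) missed the threshold. ERO1L, which is also known as a hypoxia-induced gene, had 79.5 and 87.3 CPM in control, 86.7 and 84.3 after 4 h, 98.9 and 114 after 24 h, and 59.4 and 61.6 at 48 h. It was the highest at 24 h (log2 change 0.35, SE 0.08, adjusted p = 0.00999, lost without control replicate 1 or 24 h replicate 2) and the lowest at 48 h (-0.46, SE 0.08, adjusted p = 4.25e-04).

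FKBP14, a prolyl isomerase that acts on collagen, had 33.0 and 37.0 CPM in control, 39.4 and 38.7 after 4 h, 34.3 and 33.3 after 24 h, and 18.1 and 22.7 at 48 h. Both 48 h libraries lay under all others, with a log2 change of -0.78 (SE 0.11, adjusted p = 6.33e-05). PDIA5, another disulfide isomerase, had 27.5 and 27.3 CPM in control, 23.8 and 24.8 after 4 h, 24.3 and 21.6 after 24 h, and 21.7 and 21.6 at 48 h. Its changes at 4 h (-0.17, SE 0.09, adjusted p = 0.172) and 24 h (-0.25, SE 0.09, adjusted p = 0.0595) were not called. Only the 48 h change passed the test (-0.34, SE 0.09, adjusted p = 0.00557), and 48 h did not differ from 24 h by the test (-0.08, SE 0.09). TXNDC5 had 3.23 to 4.36 CPM in all libraries and was not called at any time.

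**Figure D3:**
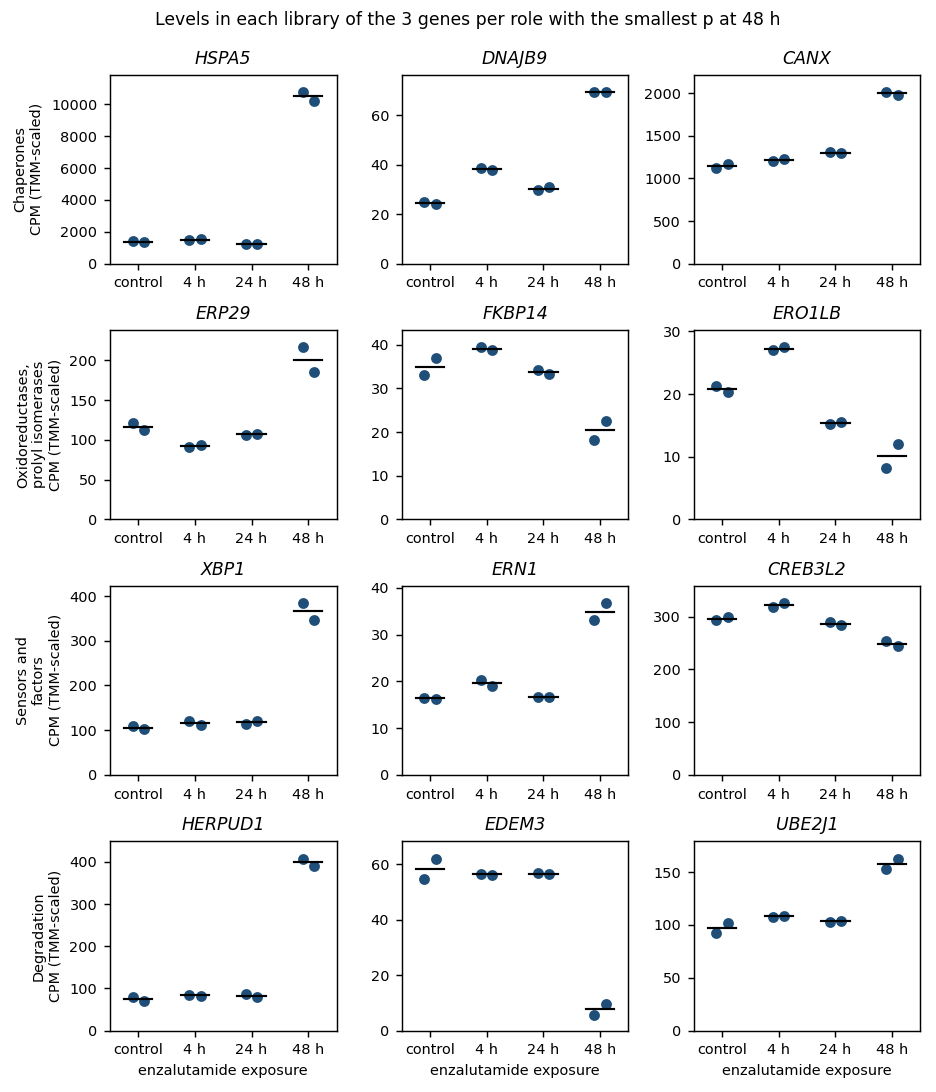
TMM-scaled CPM (each panel from 0, linear axis) in each library for the 3 genes of each role with the smallest p at 48 h against control; points are libraries and bars are means of 2. HSPA5, HERPUD1 and XBP1 stay near control until 24 h and step up at 48 h, DNAJB9 has an early peak at 4 h, and EDEM3 drops to 5.65 and 9.62 CPM at 48 h.

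Of the 6 sensors and their transcription factors, 3 were higher and 1 lower at 48 h, a called share of 66.7%, beside 66.9% of all genes. XBP1, the factor made active by IRE1, had 108 and 103 CPM in control, 121 and 112 after 4 h, 115 and 121 after 24 h, and 385 and 347 at 48 h. The first 3 groups lay close together, and 48 h was 3.46-fold above control (log2 change 1.79, SE 0.07, adjusted p = 7.41e-09). Counts per gene do not separate spliced from unspliced XBP1. ERN1, the sensor IRE1 itself, had 16.4 and 16.3 CPM in control, 20.2 and 19.0 after 4 h, 16.7 and 16.6 after 24 h, and 33.1 and 36.8 at 48 h. It was 2.14-fold higher at 48 h (log2 change 1.09, SE 0.09, adjusted p = 1.3e-06), while the 4 h change of 0.26 (SE 0.09, adjusted p = 0.0605) missed the threshold.

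The 2 ATF6 genes differed. ATF6 had 101 and 107 CPM in control, 98.0 and 97.7 after 4 h, 115 and 114 after 24 h, and 110.0 and 111 at 48 h, and no change against control passed the test (0.09, SE 0.06, at 48 h). ATF6B, its paralogue and a weaker activator, had 65.0 and 61.4 CPM in control, 50.5 and 51.4 after 4 h, 47.9 and 47.1 after 24 h, and 79.1 and 74.97 at 48 h. It was lower at 4 h (log2 change -0.31, SE 0.07, adjusted p = 0.00633) and at 24 h (-0.41, SE 0.07, adjusted p = 0.00163), and higher at 48 h (0.28, SE 0.07, adjusted p = 0.00303). The 24 h call stood under every setting tried other than a required log2 change of at least 1, the 4 h call was lost without control replicate 1 or 4 h replicate 1, and the 48 h call was lost with library totals. CREB3L2 (BBF2H7), a membrane-bound factor related to ATF6 that raises secretory capacity, had 294 and 299 CPM in control, 318 and 326 after 4 h, 289 and 284 after 24 h, and 253 and 244 at 48 h. It was lower at 48 h by a small margin (-0.25, SE 0.06, adjusted p = 0.00205). WFS1, an ER membrane protein that restrains ATF6, was not called (-0.18, SE 0.09, adjusted p = 0.0927 at 48 h).

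The genes of ER-associated degradation held both the largest fall of the set and its second-largest rise. At 48 h, 8 of 11 were higher and 2 lower, with a median log2 change of 0.44, when 33.3% of all genes were called higher and 33.5% lower. HERPUD1, an organiser of the membrane ubiquitin ligase complex and a classic stress-induced gene, had 79.2 and 69.8 CPM in control, 85.3 and 82.8 after 4 h, 86.0 and 80.0 after 24 h, and 408 and 391 at 48 h. Only the 48 h libraries stood out, 5.36-fold above control (log2 change 2.42, SE 0.08, adjusted p = 1.17e-09). The ligase SYVN1 (HRD1) and its partner SEL1L rose less, by 0.39 (SE 0.07, adjusted p = 3.11e-04) and 0.42 (SE 0.09, adjusted p = 0.00134), and both lost the call with library totals. UBE2J1, the membrane-anchored ubiquitin-conjugating enzyme, had 92.6 and 102 CPM in control, 108 and 109 after 4 h, 103 and 104 after 24 h, and 153 and 163 at 48 h (0.70, SE 0.07, adjusted p = 3.82e-06). The lectin OS9, which delivers glycoproteins to the ligase, rose by 0.56 (SE 0.07).

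The EDEM proteins trim mannose from glycoproteins that fail to fold, and their 3 genes moved in different directions at 48 h. EDEM3 had 54.8 and 62.1 CPM in control, 56.5 and 56.3 after 4 h, 56.9 and 56.5 after 24 h, and 5.65 and 9.62 at 48 h. After 6 libraries within a narrow range, both 48 h libraries were far lower, and 7.66-fold lower on average (log2 change -2.94, SE 0.17, adjusted p = 7.47e-08). The change was -2.60 without 48 h replicate 1 and -3.36 without 48 h replicate 2. EDEM1 had 189 and 194 CPM in control, 158 and 156 after 4 h, 209 and 218 after 24 h, and 87.4 and 129 at 48 h. It was lower at 48 h (-0.82, SE 0.13, adjusted p = 1.97e-04), with the 48 h libraries unequal, and its 4 h and 24 h changes of -0.28 and 0.16 did not pass the test, although 24 h was above 4 h (0.44, SE 0.13, adjusted p = 0.0187). EDEM2 had 108 and 93.6 CPM at 48 h, against 75.8 and 72.2 CPM in control, and was higher (0.44, SE 0.08, adjusted p = 3.47e-04), a call lost with library totals.

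The derlins form part of the channel through which chains leave the ER. DERL1 and DERL2 were slightly higher at 4 h, by 0.21 (SE 0.06, adjusted p = 0.0268) and 0.26 (SE 0.09, adjusted p = 0.0471), and both calls were lost with library totals, with no filter on low counts, and without any of the control, 4 h or 24 h libraries. DESeq2 did not call DERL2 at 4 h. DERL1 was not called at 48 h (-0.02, SE 0.06; lower by -0.30 with library totals), and DERL2 was higher (0.57, SE 0.09, adjusted p = 1.45e-04). DERL3 lay at 0.777 to 2.44 CPM, and its 48 h change of 0.99 (SE 0.35, adjusted p = 0.0265) lost its call with library totals and without control replicate 2 or 48 h replicate 2. At 24 h edgeR and DESeq2 each called 0 of the 11 degradation genes, with 1 higher and 1 lower at an unadjusted p under 0.05 in edgeR, and 0 and 1 in DESeq2. Over all genes at 24 h, edgeR called 22.3% and DESeq2 20.3%.

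**Figure D4:**
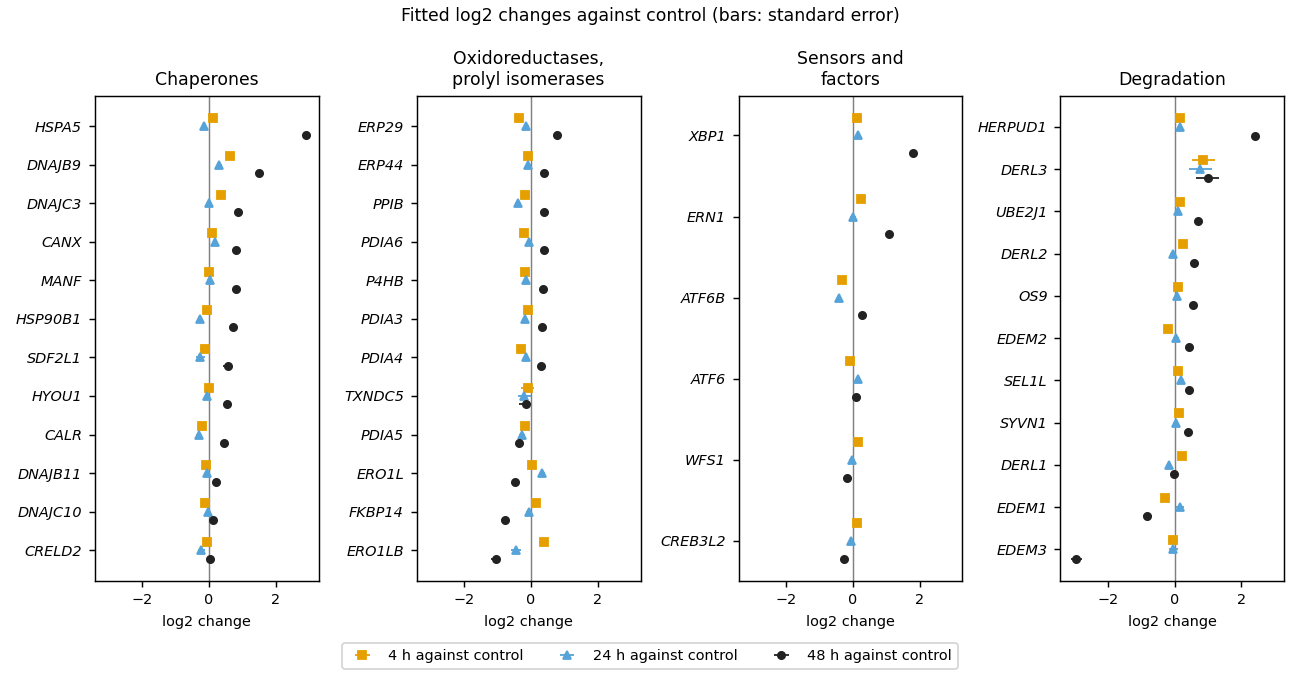
Fitted log2 change against control (horizontal axis) of each ER gene at 4 h, 24 h and 48 h, in a panel per role; bars are standard errors. The 4 h and 24 h symbols stay between -0.44 and 0.86 and the 48 h symbols spread from -2.94 for EDEM3 to 2.92 for HSPA5.

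The step fell between 24 and 48 h. At 48 h, set against 24 h, 29 of the 41 genes were higher and 6 lower, with all 12 chaperones among the 29. Of all genes, 66.8% were called (31.5% higher and 35.3% lower). With library totals 24 of the 29 stayed higher, while CRELD2, DNAJB11, DNAJC10, SEL1L and SYVN1 lost the call. The DNAJC10 call was also lost with no filter, with only the compared groups, and without any of the 4 h or 24 h libraries. CRELD2 and SEL1L also lost theirs with only the compared groups and without some single libraries. The median log2 change of 48 h over 24 h was 0.48, beside -0.07 over all genes. Between 4 and 24 h, 5 genes were higher and 9 lower at 24 h, when 41.5% of all genes were called (21.2% higher and 20.3% lower), with a median of -0.08. The largest of those falls were in ERO1LB (-0.83, SE 0.14, adjusted p = 6.6e-04), DERL1 (-0.38, SE 0.06, adjusted p = 6.84e-04) and DNAJC3 (-0.37, SE 0.07, adjusted p = 0.00134). Over the 3 comparisons with control, 17 genes were called only at 48 h as higher and 5 only at 48 h as lower, and 5 genes were never called. These patterns were not counted over all genes, so they are not shown to be particular to the ER genes. Against control, 66.9% of all genes were called at 48 h, but only 28.6% after 4 h and 22.3% after 24 h. The never-called genes were CRELD2, DNAJC10, TXNDC5, ATF6 and WFS1.

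A wider list of 64 other ER folding, stress and degradation genes, of which 61 were tested, had a smaller median change. At 48 h, 27 were higher and 18 lower with a median log2 change of 0.11. The alternative settings given below were not examined for this list. Library totals moved the median of all genes at 48 h by -0.28, so the sign of that 0.11 may depend on the scaling. At 4 h 12 were higher and 8 lower, and at 24 h 8 and 4. The called shares of 32.8% at 4 h, 19.7% at 24 h and 73.8% at 48 h lay near the 28.6%, 22.3% and 66.9% of all genes. The rises with the smallest p at 48 h were DNAJB2 (0.99, SE 0.06), a cytosolic and ER-membrane J protein; RNF139 (1.22, SE 0.08) and RNF185 (1.01, SE 0.08), membrane ubiquitin ligases; SELS (0.82, SE 0.07), a selenoprotein of the degradation complex; DNAJC1 (0.83, SE 0.07); and CREB3 (0.73, SE 0.08). The falls with the smallest p were ERLIN2 (-1.10, SE 0.06), UBE2G2 (-1.61, SE 0.10), an ubiquitin-conjugating enzyme of ER degradation, TMX1 (-1.23, SE 0.09) and TMX3 (-0.67, SE 0.06), membrane disulfide isomerases, NPLOC4 (-0.61, SE 0.06), a cofactor of the p97 segregase, and SUMF1 (-0.65, SE 0.07).

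Some of these genes moved early. At 4 h DNAJB2 rose by 0.76 (SE 0.06), CCDC47 by 0.52 (SE 0.06) and DNAJC1 by 0.41 (SE 0.07), and CREB3L1 fell by 0.46 (SE 0.07), CNPY4 by 0.73 (SE 0.12) and FKBP9 by 0.39 (SE 0.07). At 24 h UFD1L rose by 0.50 (SE 0.07), HSPA13 by 0.37 (SE 0.06) and CLGN by 0.49 (SE 0.10), and TMEM129, FKBP7 and MOGS had changes of -0.53 (SE 0.10), -0.56 (SE 0.13) and -0.19 (SE 0.06). EIF2AK3, which encodes the remaining sensor PERK and was picked after its values were seen, had 28.7 and 26.9 CPM in control, 37.7 and 40.3 after 4 h, 39.3 and 36.1 after 24 h, and 27.7 and 31.9 at 48 h. It was higher at 4 h (log2 change 0.49, SE 0.09, adjusted p = 0.00272) and 24 h (0.44, SE 0.09, adjusted p = 0.00635) and not called at 48 h (0.10, SE 0.09, adjusted p = 0.365). Like the other early calls of the wider list, those of EIF2AK3 were not examined under the alternative settings.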

How the data were processed

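RNA-seq libraries of U87MG cells were made from column-purified, DNase-treated total RNA with an Illumina kit, per the labels' protocols. The submitters' processing notes name Bowtie and a single human build under both its names, hg19 and GRCh37. How reads were counted, on which annotation and with which strand setting, is not given in the sources used here. Each deposited file gives the authors' raw read counts by gene symbol, with no scaling. Genes with near-identical copies or overlaps may share reads. In each file 28 rows had date-like names (0.191 to 0.224% of counts) and stayed in the totals.

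Groups and replicate numbers came from the labels. The analysis used edgeR 4.0.16 in R 4.3.3: filterByExpr, TMM factors, and a quasi-likelihood fit of all 8 libraries with a coefficient for each group (residual df 4, common dispersion 0.00512). Adjusted p-values in the text come from this fit, over all 14448 genes. Standard errors were taken as the size of the log2 change over the root of its F. Full values are given for the 3 genes per role with the smallest p at 48 h, those lower at 48 h and those called in opposite directions. The wider list gave up to 6 genes per direction at 48 h and 3 at other times. DNAJC3, ATF6 and EIF2AK3 were given in full outside these rules, as was the 24 h change of DNAJC1. The genes, lists and tests were chosen with earlier results of these data known. Alternatives were DESeq2 1.42.0, DESeq2 size factors, library totals, no filter, only the compared groups, a replicate block, each library left out, and a log2 change of at least 1. A fit without both 48 h libraries was added after seeing the data. Promoter sequences came from RefSeq (GRCh38.p14), and exon lengths from GENCODE.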

Additional observations from a re-analysis of the deposited data

Results flagged for a closer look

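For 8 genes the effects against control had opposite signs at 2 times, each past the threshold, and the difference between those times also passed the edgeR test. CALR, HSP90B1, PPIB and ATF6B were lower than control at 24 h and higher at 48 h. Their log2 differences of 48 h over 24 h were 0.74 (SE 0.07, adjusted p = 1.79e-06) for CALR, 0.98 (SE 0.05, adjusted p = 5.15e-08) for HSP90B1, 0.79 (SE 0.07, adjusted p = 2.3e-06) for PPIB and 0.70 (SE 0.07, adjusted p = 4.24e-06) for ATF6B. ERO1L was higher than control at 24 h and lower at 48 h, a difference of -0.82 (SE 0.08, adjusted p = 5.14e-06). Against 4 h, where they were lower than control, the 48 h levels differed by 0.65 (SE 0.07, adjusted p = 4.57e-06) for CALR, 0.58 (SE 0.06, adjusted p = 8.15e-06) for PDIA4, 0.60 (SE 0.06, adjusted p = 3.65e-06) for PDIA6, 1.12 (SE 0.08, adjusted p = 2.81e-07) for ERP29 and 0.60 (SE 0.07, adjusted p = 1.33e-05) for ATF6B. Both libraries of each later group lay on the stated side of both libraries of the earlier group. Since the genes were picked for a called difference between these times, this adds no separate support. How many of all genes had opposite calls was not counted. The TMM factors also differed between 48 h and the other times. With library totals as scaling, every one of these differences between times was still called, from 0.36 (PDIA4) to 0.90 (ERP29) for the rises and -1.03 for ERO1L. Opposite calls against control then held for CALR, HSP90B1, ERO1L and ERP29, while the 48 h changes of PPIB (0.13), ATF6B (0.01), PDIA4 (0.02) and PDIA6 (0.12) were not called.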

How the results depend on the processing

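The 48 h calls rested on the scaling more than on single libraries. DESeq2, DESeq2 size factors, no filter and the replicate block each kept all 28 higher and 7 lower ER genes (the block called 8 lower), and the compared groups alone kept 27 and 7. Library totals gave 15 higher and 12 lower (median 0.13), and a median of 0.27 for 48 h against 24 h; over all genes they gave 2742 higher at 48 h, in place of 4814. That setting moves the median of all genes at 48 h by -0.28. Under it CRELD2 (-0.24), DNAJB11 (-0.07), DNAJC10 (-0.16) and ATF6 (-0.19) turned negative at 48 h against control, as did DNAJC10 (-0.06) against 24 h. A log2 change of at least 1 left 5 higher and 2 lower at 48 h, 5 and 1 against 24 h, and 0 in the other comparisons; that is 17.1% and 14.6% of the ER genes, beside 21.2% and 21.7% of all genes.

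The 4 h and 24 h counts of 4 and 5, and 3 and 5, were fragile. They were 8 and 9, and 5 and 14, with only the compared groups, and 11 and 9, and 5 and 13, without the 48 h libraries. Library totals gave 2 and 9 at 4 h (median -0.07) and 12 lower at 24 h (median -0.11). DESeq2 size factors gave 9 lower at 24 h, with a median of -0.07, as did DESeq2. For 24 h against 4 h, the compared groups gave 8 higher, and a fit without 48 h 14 lower. The cause was not tested. As shares, the ER genes were called in 48.8% at 4 h and 43.9% at 24 h without the 48 h libraries (all genes 40.2% and 34.1%), and in 34.1% at 24 h with library totals (22.7%). Over all genes, 2412 were lower at 24 h with the compared groups and 2330 without 48 h, in place of 1356.

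Leaving out single libraries gave 2 to 10 higher and 0 to 9 lower at 4 h, 0 to 7 and 1 to 12 at 24 h, 26 to 28 and 7 to 8 at 48 h, 0 to 7 and 5 to 12 for 24 h against 4 h, and 26 to 29 and 5 to 7 for 48 h against 24 h. The medians ran from -0.02 to 0.01, -0.07 to -0.03, 0.35 to 0.45, -0.11 to -0.04 and 0.41 to 0.51. The most 4 h and 24 h calls came without a 48 h library, and all-gene counts then reached 2992 and 2879 higher. Same-numbered libraries deviated together with correlations of -0.03 to 0.28, so the numbers are not taken to pair them; the replicate block gave 4945 higher and 4939 lower over all genes at 48 h. Where 1 library was left in a group, its spread was taken from the rest.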
